A study of Mus musculus with 24 samples.

Results

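One hour after the removal of 4-thiouridine (4SU), Tut4/7 cDKO and control preleukemic mouse cells were compared gene by gene, in read abundance and in T-to-C conversion rate. The comparison took the 6 libraries labelled as 60 min, 3 cDKO and 3 control, of 24 in the series, which also holds 0, 180 and 540 min. Libraries were chosen by their labels alone. The cells were c-Kit+ fetal liver progenitors transformed with Meis1 and Hoxa9, the transcription factors of a common model of acute myeloid leukemia, and every library of both genotypes carried that transformation. Control cells were Tut4 fl/fl; Tut7 fl/fl without Vav-iCre. cDKO cells carried the same floxed alleles with Vav-iCre, a Cre recombinase that the Vav promoter drives in hematopoietic cells. Both were labelled with 2.9 µM 4SU for 12 h and then kept for 60 min in medium without it. According to the methods the replicates were separate biological samples, and a difference between genotypes is therefore also one between transformed cultures.

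TUT4 and TUT7 are terminal uridylyltransferases, enzymes that extend RNA 3′ ends with uridines. Short uridine tails on mRNAs with shortened poly(A) tails promote decay from either end, and tails on precursors of let-7 microRNAs can block or favour their maturation. In SLAM-seq, 4SU taken up during labelling is built into new transcripts and, after alkylation, appears as a T-to-C change in the reads. The conversion rate of a gene at a given chase time thus depends on how much label its transcripts took up, on how much has been lost since, and on T-to-C differences that do not come from label.

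Filtered reads in the 6 libraries ranged from 9552906 to 11335427, and reads kept in 3′ untranslated regions (3′UTRs) from 4582125 to 5525298. The share of filtered reads within 3′UTRs was 50.7 ± 0.392% in control and 45.2 ± 1.16% in cDKO (SD, n = 3), and the groups did not overlap (two-sided exact permutation p = 0.1, adjusted p = 0.133 over 4 library measures). With 3 libraries a side, 0.1 is the smallest p that such a test allows. Levels are given as CPM, reads scaled to each library's kept 3′UTR total, in the order of replicates 1, 2 and 3. Several libraries stood apart from the others of their group. cDKO replicate 3 had the lowest conversion rate. In Xist, the X-inactivation RNA, the libraries had 191, 432 and 344 CPM in control and 1973, 57.4 and 1911 CPM in cDKO. Ddx3y, on the Y chromosome, had 0, 0 and 1 reads in control and 79, 787 and 36 reads in cDKO. Eif2s3y, another Y-linked gene, had 0, 0 and 0 reads in control and 24, 191 and 4 reads in cDKO. Reads of these Y-linked genes thus separated the genotypes, with more in every cDKO library than in any control library. In Xist and Ddx3y, cDKO replicate 2 also differed from replicates 1 and 3. The labels give no sex, and the part of sex or of mixed cultures in the results was not tested.

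The targeted genes were examined first. The 3′UTR of Tut4 lies in mm10 at chromosome 4, 108558786 to 108559415, plus strand, and had 85.7, 91.0 and 88.6 CPM in control and 31.9, 40.0 and 32.2 CPM in cDKO. All cDKO libraries were below all control libraries, a log2 change of -1.37 ± 0.12, adjusted p = 6.1e-05 (edgeR quasi-likelihood test, Benjamini-Hochberg adjusted, SE). Tut7 (chromosome 13, 59771879 to 59772859, minus strand) had 37.7, 45.4 and 45.5 CPM in control and 22.0, 25.8 and 29.9 CPM in cDKO, again without overlap (log2 change -0.74 ± 0.16, adjusted p = 0.0075). Reads remained in every cDKO library for both genes. Which exons the floxed alleles remove is not given in the sources used here. These 3′-end reads thus measure the transcript's end and do not check the deletion itself. Among the reads that remained, the conversion rate of Tut4 was 1.73, 1.46 and 1.74% in control and 0.538, 0.509 and 0.409% in cDKO, and that of Tut7 1.41, 1.22 and 1.70% in control and 0.479, 0.490 and 0.546% in cDKO. Neither was called against the library-wide difference described next (relative log2 change -0.65, edgeR adjusted p = 0.244, and -0.35, edgeR adjusted p = 0.793).

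A smaller share of T positions was converted in every cDKO library than in any control library. Over all genes, 1.49, 1.52 and 1.45% of covered T positions were converted in control and 0.767, 0.789 and 0.520% in cDKO. The group values were 1.49 ± 0.0332% and 0.692 ± 0.150% (SD, n = 3), 2.15-fold lower in cDKO (log2 ratio -1.10, two-sided exact permutation p = 0.1, adjusted p = 0.133). Without cDKO replicate 3 the log2 ratio was -0.93. Reads with at least one conversion made up 25.8 ± 0.524% in control and 13.4 ± 2.61% in cDKO (two-sided exact permutation p = 0.1, n = 3). Multimapping reads were 9.89 ± 0.0343% and 9.74 ± 0.387%, and the groups overlapped (two-sided exact permutation p = 1, n = 3). The difference was already present before the chase, at 1.64 ± 0.0261% in control and 0.736 ± 0.169% in cDKO for 0 min (SD, n = 3). At 60 min the control rate was 91.5, 90.9 and 89.4% of the 0 min rate of the same replicate number, and the cDKO rate 93.4, 93.3 and 95.9%.

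**Figure D1:**
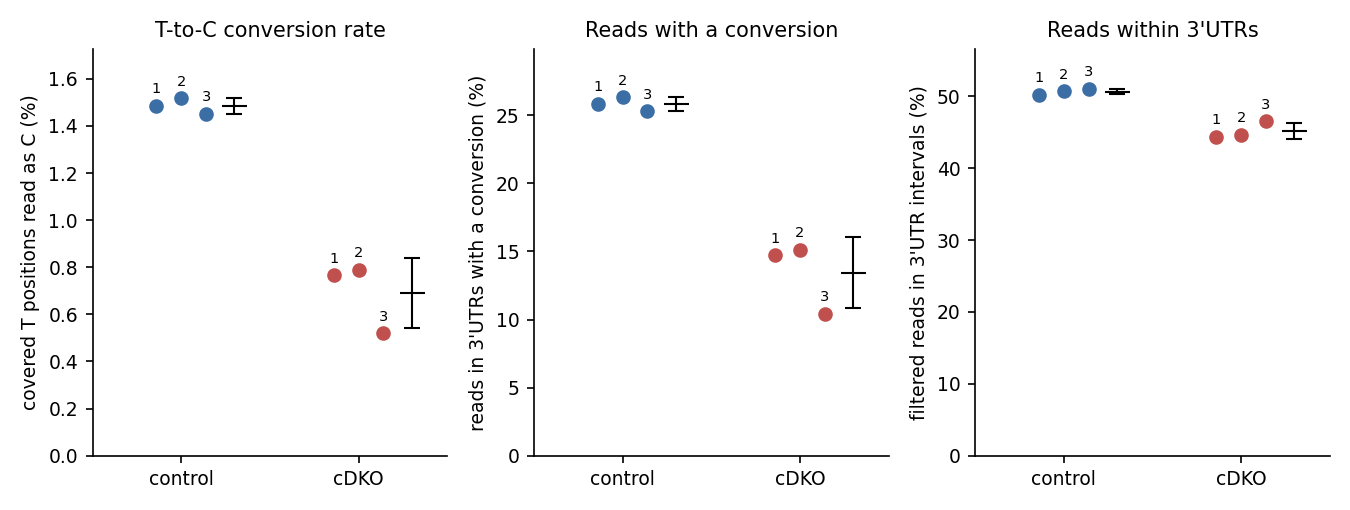
Share of covered T positions read as C, share of 3′UTR reads with a conversion, and share of filtered reads within 3′UTRs, all in percent, in the 6 libraries at 60 min. Numbered points are replicates, and bars beside them the mean and SD (n = 3). In each panel the cDKO libraries lie below the control libraries, and cDKO replicate 3, at 0.520% converted, lies below the other cDKO libraries in the left and middle panels.

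The lower rate extended to nearly every gene. Of 7325 genes with at least 1000 covered T positions in each library, 6536 (89.2%) were called in conversion rate, 6535 lower in cDKO and 1 higher, and the median log2 change was -1.11. All cDKO rates were below all control rates in 6430 genes. The gene called higher was Cxcr4, the receptor for the chemokine CXCL12. All cDKO rates were above all control rates in Cxcr4 and Snx18 alone, chosen here for that pattern.

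Genes that departed from this common difference were found by adding the library-wide rate to the model, a measure called relative conversion here. It was called in 64 of 7325 genes (0.874%), 51 higher in cDKO (0.696%) and 13 lower (0.177%), with 678 genes at an unadjusted p under 0.05. The relative rate is each gene's rate over that of its library. It did not overlap between genotypes in 1133 of the 7325 genes tested, among them all 64 called. When all lines of a gene were summed, 17 genes were called, and fewer calls also followed from leaving out control replicate 1 (35), control replicate 2 (29), control replicate 3 (31) or cDKO replicate 3 (35).

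Cxcr4 (chromosome 1, 128588199 to 128588842, minus strand) departed most. Its conversion rate was 0.884, 0.772 and 0.790% in control and 1.83, 1.65 and 1.51% in cDKO, a relative log2 change of 2.15 ± 0.13, adjusted p = 1.4e-15 (edgeR, SE), while its reads fell from 147 ± 13.5 CPM in control to 107 ± 8.96 CPM in cDKO (SD, n = 3). Snx18 (chromosome 13, 113592179 to 113594608, minus strand), a sorting nexin of membrane trafficking, had rates of 1.42, 1.38 and 1.16% in control and 1.71, 1.90 and 1.502% in cDKO, also higher in every cDKO library (relative log2 change 1.49 ± 0.18, adjusted p = 7.5e-07). Both calls held under all alternatives (highest adjusted p 5.4e-05 for Cxcr4 and 0.0106 for Snx18). In the other 6 genes with the largest increases, the rates of the genotypes overlapped or lay close to each other, against the 2.15-fold difference between libraries. Rpl14 (chromosome 9, 120574395 to 120574653, plus strand), a ribosomal protein of the large subunit, had 2.77, 2.24 and 2.36% in control and 2.30, 2.24 and 2.15% in cDKO (relative log2 change 1.00 ± 0.09, adjusted p = 7.3e-10). Tyrobp (chromosome 7, 30417410 to 30417582, plus strand), a signalling adaptor of myeloid receptors, had 3.62, 3.36 and 3.39% in control and 3.12, 3.28 and 3.16% in cDKO (relative log2 change 1.00 ± 0.10, adjusted p = 7.2e-09). The others were Timm17a, a subunit of the mitochondrial import channel (0.91), Zswim8, a ubiquitin ligase subunit that acts in target-directed microRNA decay (0.91), C2cd2l (1.01) and Rabepk (1.47). Under at least one alternative the adjusted p reached 0.28 for C2cd2l and 0.322 for Rabepk.

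Many of these genes kept much of their conversion rate over the chase. At 540 min the rate of Rpl14 was 2.99 ± 0.222% (control) and 2.81 ± 0.186% (cDKO), and that of Tyrobp 2.90 ± 0.0890% (control) and 3.05 ± 0.253% (cDKO) (SD, n = 3). Of the 51 genes higher in relative conversion, 25 kept at least 50% of their 0 min rate at 540 min in both genotypes, 49.0%, against 337 of all 7325 genes tested (4.60%). By then their rates had medians of 0.936% (control) and 0.802% (cDKO), against 0.142 and 0.103% over all genes tested. Their 3′UTR intervals had a median length of 259 bases, against 1098 over all genes. The part of T-to-C differences that do not come from label in these calls was not tested. Cxcr4 and Snx18 differed from this pattern in control. Their rates at 540 min were 0.145 ± 0.0164% (control) and 1.33 ± 0.0872% (cDKO) for Cxcr4, and 0.0729 ± 0.0641% (control) and 0.924 ± 0.102% (cDKO) for Snx18.

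The 8 genes with the largest decreases in relative conversion had rates well below the library-wide difference. Ctsd, the lysosomal protease cathepsin D, had rates of 1.03, 0.980 and 0.851% in control and 0.329, 0.402 and 0.176% in cDKO (relative log2 change -0.59 ± 0.10, adjusted p = 5.9e-04, edgeR, SE). B2m, the light chain of MHC class I, had 0.879, 0.913 and 0.930% in control and 0.328, 0.343 and 0.1999% in cDKO (relative log2 change -0.55 ± 0.06, adjusted p = 1.1e-07). Counted as reads with a conversion over all reads, B2m was instead called higher, so its direction depends on the measure. Ccr2, the receptor for the monocyte chemokine CCL2, had 1.67, 1.70 and 1.60% in control and 0.530, 0.611 and 0.482% in cDKO (relative log2 change -0.46 ± 0.09, adjusted p = 0.00179). The lysosomal hydrolase Aga, Gstm1, a glutathione transferase (-0.57), Wfdc17 (-0.85), Wdr61 (-0.96) and Mmgt1 (-1.02) were the others named. Of these 8 genes, B2m passed the threshold under every alternative run, with the opposite direction in that one. The other calls were each lost under at least one alternative, with a highest adjusted p from 0.19 for Wdr61 to 0.353 for Mmgt1.

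**Figure D2:**
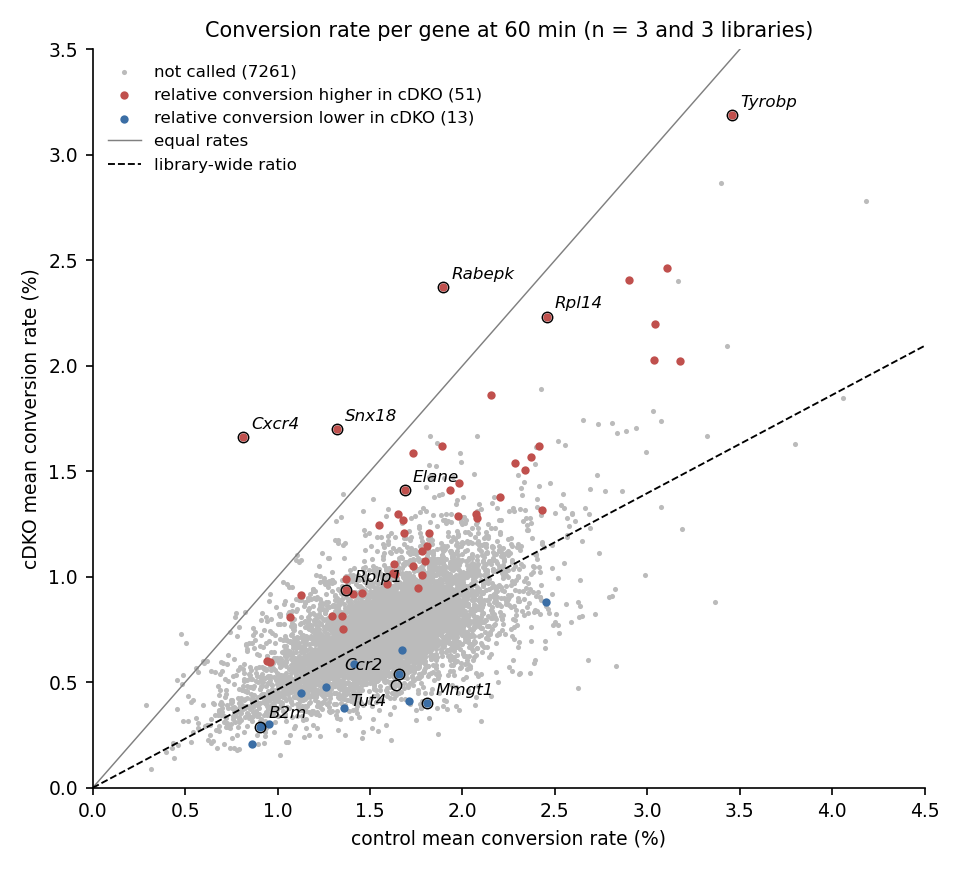
Mean conversion rate per gene in control (x) and cDKO (y), in percent of covered T positions, for the 7325 genes tested at 60 min (n = 3 libraries each). The dashed line is the library-wide ratio and the solid line equal rates. Most genes lie along the dashed line, while Cxcr4, Snx18 and Rabepk lie above the solid line, the first pair with all cDKO libraries above all control libraries.

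Read abundance differed in many genes as well, in both directions. Of 10157 genes with at least 10 reads in at least 3 libraries, 2044 were called (20.1%), 1009 higher in cDKO (9.93%) and 1035 lower (10.2%), and the median log2 change over all genes was 0.0034. Of the called genes, 427 were higher and 323 lower by at least 1 on the log2 scale. Leaving out control replicate 2 or 3 left 1301 and 1318 genes. The median coefficient of variation between libraries was 10.4% in control and 12.8% in cDKO.

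The genes with the largest increases had few reads in control. Ikzf2 (chromosome 1, 69531207 to 69538767, minus strand), encoding the transcription factor Helios, had 3.53, 9.77 and 8.41 CPM in control and 456, 521 and 525 CPM in cDKO (log2 change 6.09 ± 0.22, adjusted p = 2.0e-07, edgeR, SE). C2cd4a (chromosome 9, 67830532 to 67830754, minus strand) had 3.35, 2.35 and 3.90 CPM in control and 247, 346 and 539 CPM in cDKO (log2 change 6.87 ± 0.35, adjusted p = 2.0e-06). Gata2, a transcription factor of stem and mast cells, had 7.43, 3.62 and 6.15 CPM in control and 77.9, 102 and 132 CPM in cDKO (log2 change 4.16 ± 0.27, adjusted p = 6.6e-06). In each of these the lowest cDKO library was many times the highest control library. The libraries of cDKO differed more from each other in Vcam1, an adhesion molecule (13.6, 23.0 and 34.5 CPM in control and 445, 141 and 735 CPM in cDKO), and in Hgf, hepatocyte growth factor (5.39, 5.43 and 6.77 CPM in control and 129.6, 91.7 and 272 CPM in cDKO). S100a6 (4.97), Oaf (4.25) and Neto2 (3.92) were the others named by log2 change.

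Some genes had no read at all in control. Susd5 (chromosome 9, 114096911 to 114098733, plus strand) had 0, 0 and 0 CPM in control and 119.8, 164 and 208 CPM in cDKO. Its cDKO level was at least 873-fold higher against a floor of 3 reads over the group (edgeR adjusted p = 3.9e-06). F2r, the thrombin receptor, was at least 701.5-fold higher and Kynu, an enzyme of tryptophan breakdown, at least 520.7-fold higher by the same measure (edgeR adjusted p = 7.6e-04 for F2r and 8.3e-05 for Kynu), and both were lowest in cDKO replicate 2, at 36.4 CPM for F2r and 54.8 CPM for Kynu. Hbb-bt (chromosome 7, 103812524 to 103812655, minus strand), an adult beta globin, had 0, 1 and 3 reads in control and 6478, 7398 and 10207 in cDKO (edgeR adjusted p = 7.9e-09). Its near-identical copy Hbb-bs had 1 read in all, and reads of the copies may not be told apart.

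The genes with the largest decreases included the granule genes Elane and Mpo. Elane (chromosome 10, 79888118 to 79888216, plus strand), neutrophil elastase, had 1213, 1415 and 1320.0 CPM in control and 157, 35.6 and 13.8 CPM in cDKO (log2 change -4.30 ± 0.63, adjusted p = 0.00113, edgeR, SE). Mpo, myeloperoxidase, had 472, 674 and 568 CPM in control and 172, 7.99 and 2.08 CPM in cDKO (log2 change -3.28 ± 0.94, adjusted p = 0.0341, highest adjusted p of any alternative 0.116). In both, cDKO replicate 1 was well above the other cDKO libraries and still below control. Il6ra, a chain of the interleukin 6 receptor encoded on chromosome 3, had 57.2, 56.6 and 51.3 CPM in control and 8.73, 7.59 and 2.84 CPM in cDKO. Actn1, an actin crosslinker, had 213, 248 and 252 CPM in control and 52.6, 24.2 and 9.86 CPM in cDKO. Ifi209 (-3.88), Mcemp1 (-3.36) and Tnfsf13 (-3.19), the cytokine APRIL, were also named, and the interval of Tnfsf13 is the same as that of the read-through gene Tnfsfm13, so these reads belong to either. F13a1 (chromosome 13, 36867178 to 36868764, minus strand), coagulation factor XIII A of monocytes and platelets, had 179, 235 and 166 CPM in control and 0.436, 0 and 0 CPM in cDKO, a ratio of 1445 on 2 cDKO reads (exact 95% interval 399.6 to 11930). Zfp979 (chromosome 4, 147611936 to 147613026, minus strand), a zinc finger gene, had 40.7, 51.0 and 47.8 CPM in control and 0, 0 and 0 CPM in cDKO, at least 230-fold lower in cDKO. Pakap had 1 cDKO read (ratio 462, exact 95% interval 82.6 to 18300), as did D630023F18Rik (ratio 313, exact 95% interval 55.7 to 12390). Intervals and bounds cover counting error only, since the reads carry no molecular identifiers.

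**Figure D3:**
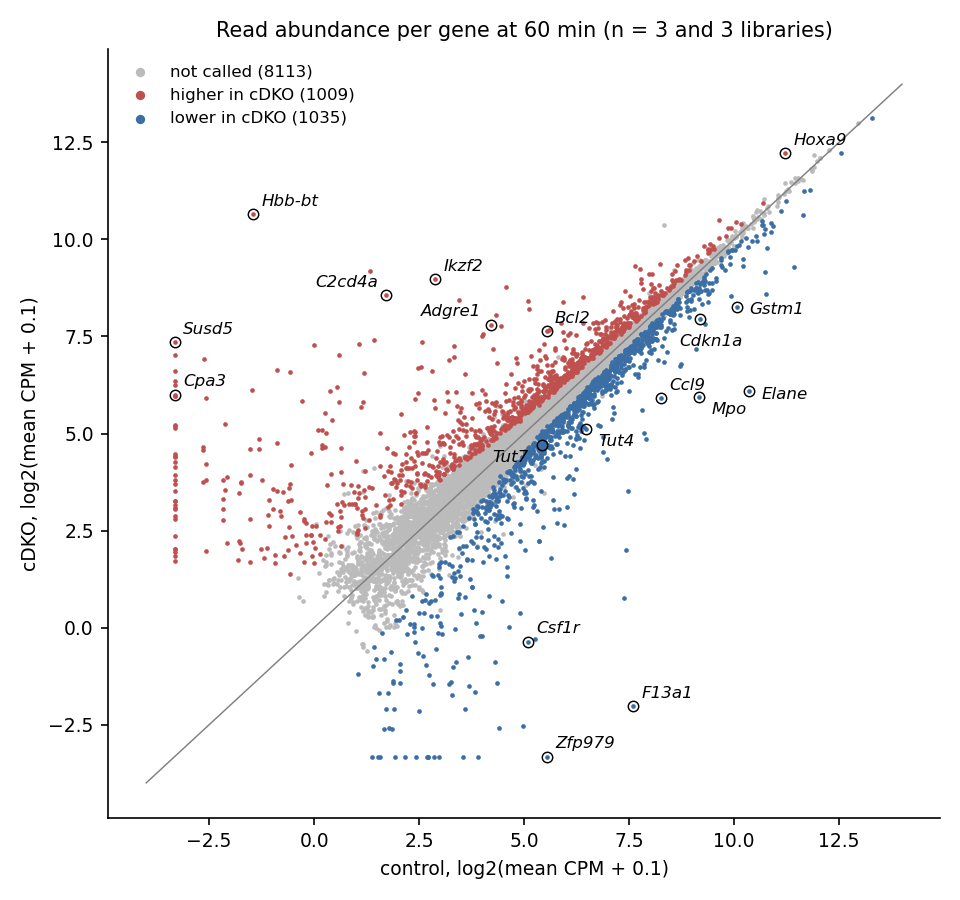
Mean read abundance per gene at 60 min in control (x) and cDKO (y), both as log2 of CPM plus 0.1, for the 10157 genes tested (n = 3 libraries each). The line marks equal levels. Points at the left and lower margins had no read in one genotype, such as Susd5 and Cpa3 in control and Zfp979 in cDKO.

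Genes of chromosome 3 were lower in cDKO more often than those of the other autosomes. Of 481 genes tested there, 241 were called lower and 20 higher, 54.3% in all, and the median log2 change was -0.47. On the other 18 autosomes the medians ran from -0.0197 to 0.108, and from 15.3 to 21.3% of genes were called. The median of log2 CPM on chromosome 3 against the control mean was -0.45, -0.48 and -0.48 in cDKO replicates 1, 2 and 3. When its genes were left out of the fit, the calls numbered 1705, of which 893 were higher in cDKO. Relative conversion showed no such shift, with a median log2 change of -0.0115 over 344 genes of chromosome 3. List members that fell and lie on this chromosome are marked as such in what follows.

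**Figure D4:**
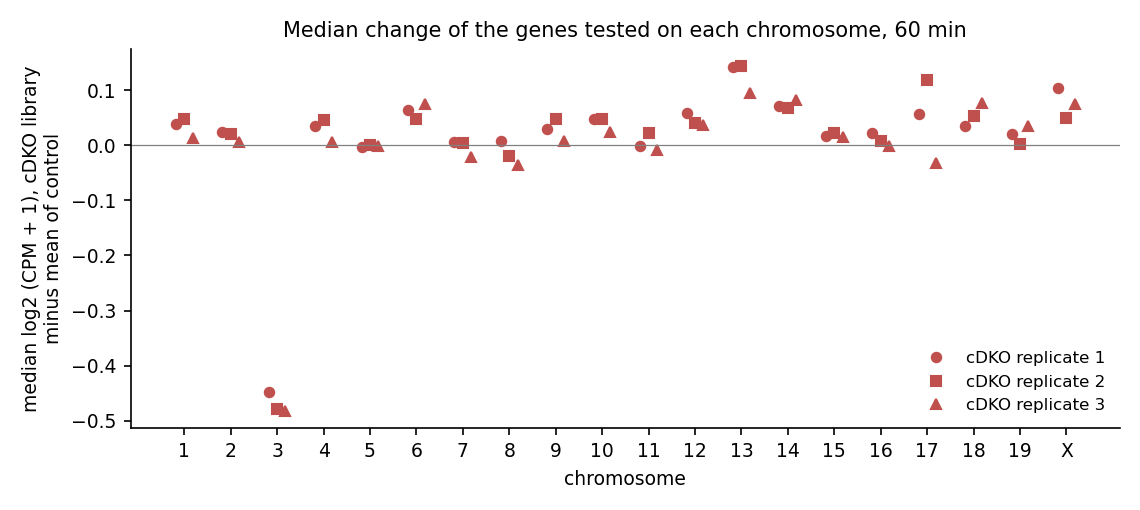
Median over the genes of each chromosome of the log2 level (CPM plus 1) in a cDKO library minus the mean of the control libraries, at 60 min, with one symbol for each cDKO replicate. All replicates lie between -0.45 and -0.48 on chromosome 3 and between -0.0360 and 0.143 on the others. The Y chromosome, with 1 gene tested, is left out.

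Markers of myeloid progenitors were read in both genotypes, but many changed. Ptprc (CD45), Kit, Spi1 and Ms4a3 were read in every library, though Spi1 and Ms4a3 were themselves called lower in cDKO. Mpo had only 40 and 11 reads in cDKO replicates 2 and 3. Of 10 such markers, 5 were lower in cDKO and 2 higher (50% and 20%, against 10.2% and 9.93% of all genes). Without any one of the control libraries, 4 were lower and 1 higher. The median log2 change was -0.38, against 0.0034 over all genes. Besides Elane and Mpo, Ms4a3, a marker of granulocyte and monocyte progenitors, had 1731, 1645 and 1681 CPM in control and 1226, 1227 and 962 CPM in cDKO (log2 change -0.59 ± 0.09, adjusted p = 0.00135, edgeR, SE). Spi1, the myeloid transcription factor PU.1, had 147, 168 and 154 CPM in control and 125, 118 and 109 CPM in cDKO (log2 change -0.43 ± 0.09, adjusted p = 0.00707). Csf2rb, the shared receptor chain for IL-3 and GM-CSF, rose in all cDKO libraries, with 327, 253 and 323 CPM in control and 574, 508 and 905 CPM in cDKO (log2 change 1.12 ± 0.19, adjusted p = 0.00252). In bulk samples, fewer cells of a type and less RNA per cell cannot be told apart.

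Of 14 markers of monocytes and macrophages, 9 were tested, 5 lower and 1 higher (55.6% and 11.1%, against 10.2% and 9.93% of all genes). Csf1r and F13a1 passed the read minimum through their control reads alone, so the share lower is no test of the list. With any one library left out 4 to 6 were lower. Csf1r, the receptor for macrophage colony-stimulating factor, had 32.7, 44.7 and 24 CPM in control and 0.873, 0.599 and 0.569 CPM in cDKO (log2 change -5.62 ± 0.37, adjusted p = 7.7e-06, edgeR, SE). Irf8, a transcription factor of monocytes, had 119.5, 173 and 128 CPM in control and 50.6, 54.4 and 49.7 CPM in cDKO (log2 change -1.46 ± 0.14, adjusted p = 1.0e-04). Adgre1 (F4/80) went the other way, with 14.5, 21.4 and 19.9 CPM in control and 194, 199 and 278 CPM in cDKO (log2 change 3.57 ± 0.18, adjusted p = 2.3e-06), and Ly6c2 had 3715, 3770.0 and 3630.0 CPM in control and 3956, 3555 and 3084 CPM in cDKO and was not called (edgeR adjusted p = 0.49). C1qa had no read in any library. Of 10 markers of mature neutrophils, 5 were tested, with 80% lower and 20% higher (10.2% and 9.93% of all genes). S100a8, S100a9 and Mmp8 passed the read minimum through control alone, so these shares are no test of the list. S100a8, S100a9, Mmp8 and Lcn2 (highest adjusted p of any alternative 0.0896) were lower, and Cebpe, a transcription factor of granule genes, was higher. Mmp8, a granule collagenase, had 19.7, 27.1 and 14.6 CPM in control and 0.436, 0 and 0.379 CPM in cDKO, and S100a9 was at least 32.0-fold lower. S100a8 and S100a9 lie on chromosome 3. Ltf, Camp and Fcnb, which mark neutrophil granules, had no read.

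Some markers of other lineages were higher in cDKO. Of 11 mast cell and basophil markers, 5 were tested, of which 60% were called higher (9.93% of all genes). Cpa3 and Hdc passed the read minimum through their cDKO reads alone, so this share is no test of the list. Cpa3, Gata2 and Hdc were higher, while Mcpt8, a basophil protease (-0.75), and Ms4a2, a chain of the IgE receptor (-0.66), had fewer reads in cDKO and were not called (edgeR adjusted p = 0.0871 for Mcpt8 and 0.222 for Ms4a2). Without control replicate 2, 1 was called lower. Cpa3, mast cell carboxypeptidase, had 0, 0 and 0 CPM in control and 52.2, 62.9 and 76.4 CPM in cDKO, at least 339-fold higher. Hdc, which makes histamine, had 0, 1.63 and 1.64 CPM in control and 38.4, 13.99 and 84.7 CPM in cDKO (log2 change 5.36 ± 0.79, adjusted p = 0.00114, edgeR, SE). Fcer1a, Mcpt4, Cma1, Tpsb2 and Tpsab1 had no read in any library. Of 14 erythroid markers in the files, 3 were tested, of which 66.7% were called higher (9.93% of all genes). Hbb-bt passed the read minimum through its cDKO reads alone, so here too the share is no test of the list. Hbb-bt and Car2, a carbonic anhydrase, were higher, and Tfrc, the transferrin receptor, was not called in abundance (0.16). In relative conversion Tfrc was called higher (relative log2 change 0.44). That call was lost without any one of the control libraries or without cDKO replicate 3. Gata1, Epor, Alas2, Slc4a1 and Car1 had no read in any library. Summed over its list, the erythroid level ran from 256 to 265 CPM in control and from 1800.0 to 2427 CPM in cDKO, and most of that cDKO sum came from Hbb-bt alone (0.265 ± 0.316 CPM in control to 1609 ± 284 CPM in cDKO, SD, n = 3). Of 9 megakaryocyte markers 3 were tested and 1 was called (33.3%, against 20.1% of all genes). This was Itga2b (CD41), with 1.30, 0.181 and 0 CPM in control and 12.4, 7.19 and 14.03 CPM in cDKO. It also passed the read minimum through cDKO alone. Of 8 markers of stroma and endothelium, Pecam1 (CD31) alone passed the read minimum. This endothelial marker, which hematopoietic cells also carry, had 58.4, 77.8 and 118 CPM in control and 378, 309 and 409 CPM in cDKO. Pdgfrb had 0 reads in control and 8, 12 and 48 reads in cDKO, whereas Cdh5 and Col3a1 had no read. Afp, a fetal liver protein, had 0.929, 2.17 and 1.02 CPM in control and 5.67, 5.195 and 5.69 CPM in cDKO (edgeR adjusted p = 0.0142, highest adjusted p of any alternative 0.0623), and Alb had 2 control reads and 1 cDKO read. None of the 7 dendritic cell and 7 B cell markers in the files passed the read minimum, and of 9 T and NK cell markers 2 were tested with 0 called. Siglecf was the 1 eosinophil marker tested and was not called. The part of other cell types in the genotype difference was not tested.

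Most tested targets of p53, the transcription factor of the DNA damage response, were lower in cDKO. Of 14 tested, 9 fell and 0 rose, 64.3% against 10.2% of all genes, with a median log2 change of -0.78. The other 5 were not called, and the highest log2 change in the list was 0.45. Like the other lists, this one was chosen with earlier results of these data known. With any one library left out, 8 to 10 fell and 0 rose. Cdkn1a, which encodes the cell cycle inhibitor p21, had 584, 623 and 540.4 CPM in control and 218, 206 and 318 CPM in cDKO (log2 change -1.25 ± 0.15, adjusted p = 2.8e-04, edgeR, SE). Phlda3, an inhibitor of AKT signalling, had 22.9, 34.0 and 33.0 CPM in control and 4.37, 3.00 and 6.44 CPM in cDKO (log2 change -2.71 ± 0.29, adjusted p = 1.7e-04). Trp53inp1 had 32.7, 29.7 and 27.3 CPM in control and 4.80, 5.79 and 8.15 CPM in cDKO (log2 change -2.27 ± 0.23, adjusted p = 1.1e-04), and Ccng1, cyclin G1, had 216, 229.5 and 216 CPM in control and 122, 144 and 139.5 CPM in cDKO (log2 change -0.73 ± 0.08, adjusted p = 2.7e-04). The groups were apart in each of these. Gdf15, a stress cytokine, had 45 control reads and 0 cDKO reads, at least 14.1-fold lower, and passed the read minimum through control alone. Zmat3, which lies on chromosome 3, fell by more than that chromosome's median of -0.47 (-1.58). None of the 7 members tested in relative conversion was called.

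The Bcl2 family, whose members protect from or promote mitochondrial apoptosis, moved in both directions. Bcl2 itself (chromosome 1, 106538176 to 106543263, minus strand), a survival factor, had 49.6, 46.5 and 42.7 CPM in control and 185, 171 and 241 CPM in cDKO, the largest increase in the list (log2 change 2.08 ± 0.14, adjusted p = 7.8e-06, edgeR, SE). Bcl2l1, which encodes the survival factor BCL-XL, also rose (log2 change 0.49 ± 0.15, adjusted p = 0.0396, highest adjusted p of any alternative 0.13). The promoters of apoptosis Pmaip1 (NOXA) and Bax fell, with 81.2, 76.9 and 69.3 CPM in control and 38.4, 39.2 and 23.3 CPM in cDKO for Pmaip1 and 37.0, 52.1 and 44.5 CPM in control and 20.5, 29.2 and 25.8 CPM in cDKO for Bax. In all 2 of 11 members tested rose and 5 fell (63.6% called against 20.1% of all genes), and without any one of the control libraries, or without cDKO replicate 1, 1 rose and 2 fell. Bbc3, Bad and the survival factor Mcl1, the last on chromosome 3, were the others that fell, and each of these calls was lost under an alternative (highest adjusted p 0.124 for Bbc3, 0.114 for Bad and 0.0756 for Mcl1).

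Of 11 genes tested of the Hoxa9 and Meis1 program, 3 rose and 1 fell, against 9.93% and 10.2% of all genes. Without cDKO replicate 2, 5 rose and 1 fell, without cDKO replicate 3, 3 rose and 2 fell, and without any one of the other libraries 3 rose and 0 fell. Hoxa9 (chromosome 6, 52223097 to 52224243, minus strand) had 2351, 2294 and 2495 CPM in control and 4577, 4197 and 5564 CPM in cDKO (log2 change 0.99 ± 0.09, adjusted p = 9.2e-05, edgeR, SE). These reads cannot separate an introduced copy of Hoxa9 that carries this 3′UTR from the endogenous gene. Pbx3, a partner of HOXA9 on DNA, had 10.96, 9.41 and 12.5 CPM in control and 41.0, 40.8 and 35.4 CPM in cDKO (log2 change 1.81 ± 0.17, adjusted p = 8.3e-05). Erg, a transcription factor of stem cells, had 7.43, 8.32 and 10.1 CPM in control and 30.3, 56.0 and 51.5 CPM in cDKO (log2 change 2.40 ± 0.25, adjusted p = 1.4e-04). Id2, an inhibitor of helix-loop-helix factors, had 23.8, 26.8 and 21.7 CPM in control and 5.24, 6.19 and 16.9 CPM in cDKO and fell (log2 change -1.36 ± 0.37, adjusted p = 0.0285, highest adjusted p of any alternative 0.109).

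**Figure D5:**
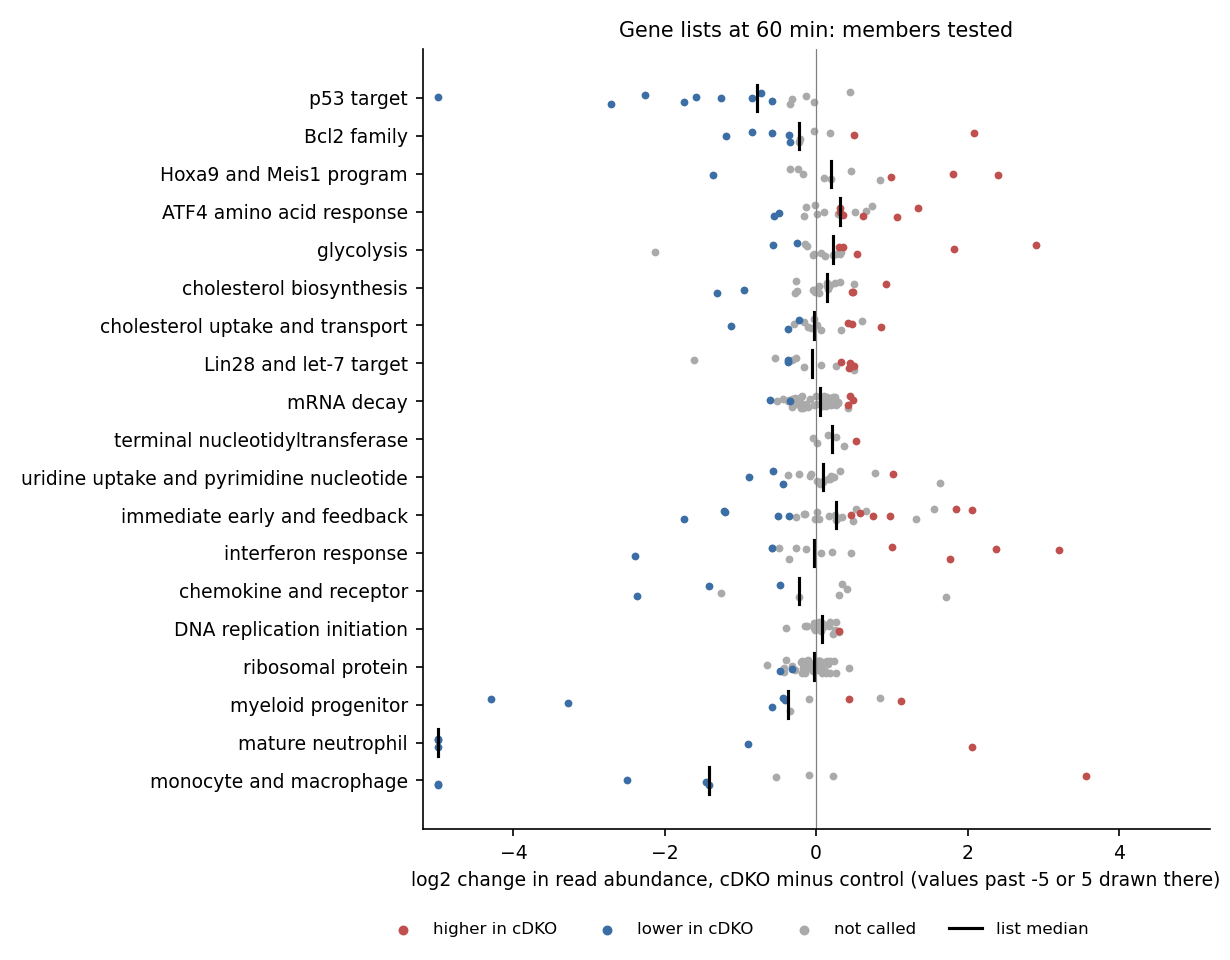
Log2 change in read abundance at 60 min, cDKO minus control, of the members tested in each gene list (points, coloured by the edgeR call) and the list median (black bar). Values past -5 or 5 are drawn at the limit. The p53 targets called all lie below 0, while the Bcl2 family, for example, has calls on both sides.

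Metabolic lists changed in part. Of 17 genes of the ATF4 amino acid response, 6 rose and 2 fell (35.3% and 11.8%, against 9.93% and 10.2% of all genes), with a median log2 change of 0.31, and with any one library left out 4 to 8 rose and 2 fell. Psat1, an enzyme of serine synthesis, had 219.5, 223 and 215 CPM in control and 412, 480.4 and 508 CPM in cDKO (log2 change 1.07 ± 0.08, adjusted p = 2.7e-05, edgeR, SE). Mthfd2, of mitochondrial folate metabolism, had 243, 247 and 289 CPM in control and 388, 407 and 419 CPM in cDKO (log2 change 0.62 ± 0.08, adjusted p = 5.4e-04), and Nupr1 10.96, 15.0 and 13.9 CPM in control and 34.3, 23.8 and 45.1 CPM in cDKO (log2 change 1.35 ± 0.25, adjusted p = 0.00376). The members that fell, Phgdh (-0.49) and Sars (-0.56), lie on chromosome 3. Atf4 itself had 498, 544 and 515 CPM in control and 539, 556 and 469.5 CPM in cDKO and was not called in abundance (edgeR adjusted p = 0.931). Of 19 glycolysis genes tested, 5 rose and 2 fell (36.8% called against 20.1% of all genes), and without control replicate 2 or 3, 2 rose and 1 fell. Slc2a3, a glucose transporter, rose from 3.24 ± 2.06 CPM in control to 24.7 ± 3.83 CPM in cDKO (SD, n = 3, log2 change 2.90 ± 0.41, adjusted p = 8.7e-04). Hk2 (0.54, highest adjusted p of any alternative 0.0603) and Pgk1 (0.30, highest adjusted p of any alternative 0.0541) also rose. Slc16a1, a lactate transporter on chromosome 3, fell (-0.57). Ldha had 558, 539.7 and 487 CPM in control and 584, 613 and 552 CPM in cDKO and was not called (edgeR adjusted p = 0.277).

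Of 21 genes of cholesterol biosynthesis, 3 rose and 2 fell, 23.8% called and so near the 20.1% of all genes, and with any one library left out 1 to 3 rose and 2 fell. Fdps (chromosome 3, 89093588 to 89093642, minus strand), which makes farnesyl diphosphate, had 79.3, 88.9 and 75.9 CPM in control and 35.8, 38.0 and 26.4 CPM in cDKO (log2 change -1.31 ± 0.15, adjusted p = 2.5e-04, edgeR, SE). Pmvk, which phosphorylates mevalonate phosphate, had 35.5, 33.5 and 38.8 CPM in control and 18.8, 17.6 and 20.1 CPM in cDKO (log2 change -0.95 ± 0.15, adjusted p = 0.00145). Both lie on chromosome 3, and both changed by more than its median of -0.47. Lss, lanosterol synthase, had 23.0, 19.9 and 19.5 CPM in control and 44.5, 38.0 and 38.1 CPM in cDKO and rose (log2 change 0.93 ± 0.15, adjusted p = 0.00164). Idi1 (0.47, highest adjusted p of any alternative 0.211) and Cyp51 (0.49, edgeR adjusted p = 0.0491, highest adjusted p of any alternative 0.188) rose as well. Hmgcs1 had a log2 change of 0.04 and Fdft1 of 0.50, and neither was called (edgeR adjusted p = 0.871 for Hmgcs1 and 0.0683 for Fdft1). Among 15 uptake and transport genes tested, 3 rose and 3 fell (40.0% called), and without control replicate 3 or cDKO replicate 1, 1 rose and 1 fell. Abcg1, a sterol exporter, had 25.8, 27.9 and 26.9 CPM in control and 46.3, 52.4 and 48.9 CPM in cDKO (log2 change 0.85 ± 0.12, adjusted p = 8.9e-04), and Soat1, which esterifies cholesterol, 82.1, 86.3 and 70.3 CPM in control and 34.0, 29.8 and 47.4 CPM in cDKO (log2 change -1.12 ± 0.17, adjusted p = 0.00138).

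Of 46 mRNA decay genes, 3 rose and 2 fell, 10.9% against 20.1% of all genes. Without cDKO replicate 3, 6 rose and 2 fell, without cDKO replicate 2, 3 rose and 4 fell, and without control replicate 1, 1 rose and 2 fell. Ddx6, a helicase of decapping complexes, had 365, 363 and 378 CPM in control and 525, 497 and 478 CPM in cDKO (log2 change 0.42 ± 0.06, adjusted p = 0.00129, edgeR, SE), and Xrn2, a nuclear exonuclease, 68.9, 80.0 and 77.7 CPM in control and 103, 111 and 100.3 CPM in cDKO (log2 change 0.45 ± 0.10, adjusted p = 0.0114, highest adjusted p of any alternative 0.0523). Exosc9, an exosome subunit on chromosome 3, fell (-0.61), as did Lsm7 (-0.34, highest adjusted p of any alternative 0.132). Of 6 other terminal nucleotidyltransferases tested 1 was called, 16.7% against 20.1% of all genes. This was Tent5a, a poly(A) polymerase, which rose, with 620.5, 587 and 651 CPM in control and 927, 988 and 793 CPM in cDKO (log2 change 0.52 ± 0.08, adjusted p = 0.00184). Among 19 genes of uridine uptake and pyrimidine nucleotides, 1 rose and 3 fell, 21.1% called and so near the 20.1% of all genes, and without control replicate 2 or cDKO replicate 1, 0 fell. The members lower in cDKO were the nucleoside transporters Slc29a2, with 23.2, 22.6 and 18.1 CPM in control and 9.82, 15.6 and 9.67 CPM in cDKO, and Slc29a3, with 36.2, 44.2 and 44.1 CPM in control and 27.9, 27.8 and 29.6 CPM in cDKO, and the uridine kinase Uck1, with 60.6, 68.8 and 50.7 CPM in control and 41.2, 47.6 and 45.5 CPM in cDKO. Each of these calls was lost under an alternative, where the highest adjusted p was 0.0997 for Slc29a2, 0.0668 for Slc29a3 and 0.17 for Uck1. Nt5c3, a pyrimidine nucleotidase, had 76.6, 70.4 and 67.1 CPM in control and 131, 133 and 172 CPM in cDKO and rose (log2 change 1.01 ± 0.12, adjusted p = 3.6e-04). The part of these genes in the lower conversion rate was not tested.

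Of 14 Lin28 and let-7 target genes tested, 4 rose and 2 fell (42.9% called against 20.1% of all genes), and the median was -0.0493. Without control replicate 1, 2 rose and 1 fell. Igf2bp3, an RNA-binding protein and let-7 target, had 239, 222 and 231 CPM in control and 177, 178 and 187 CPM in cDKO (log2 change -0.37 ± 0.07, adjusted p = 0.00385, edgeR, SE), and Nras, on chromosome 3, fell (-0.37, highest adjusted p of any alternative 0.0556). Plagl2 (0.44), a zinc finger transcription factor, was among those that rose. Arid3a was higher in relative conversion, with rates of 2.29, 2.20 and 2.12% in control and 1.45, 1.57 and 1.121% in cDKO (relative log2 change 0.43 ± 0.09, adjusted p = 0.0081, highest adjusted p of any alternative 0.0938). Of 21 genes of DNA replication initiation 1 was called in abundance (4.76% against 20.1% of all genes) and 0 in relative conversion. The gene called was Mcm3, a subunit of the replicative helicase (0.31, highest adjusted p of any alternative 0.0626). Of 57 ribosomal protein genes 2 were called in reads, 3.51% against 20.1% of all genes. They were Rpl34, on chromosome 3 (-0.47), and Rps3 (-0.32, highest adjusted p of any alternative 0.062), while without cDKO replicate 3, 5 were higher and 2 lower. In relative conversion 8 of 51 were higher and 0 lower, where 0.696% of all genes were higher. The list median was -0.0439, however, and with any library left out 7 to 9 were higher. Rplp1 had rates of 1.39, 1.33 and 1.39% in control and 1.00, 1.01 and 0.797% in cDKO (relative log2 change 0.57 ± 0.06, adjusted p = 3.4e-09), and at 540 min still 1.36 ± 0.0917% (control) and 1.03 ± 0.107% (cDKO).

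Immediate early and feedback genes, which are transcribed and lost quickly, went both ways, with 6 of 27 higher and 5 lower (40.7% called against 20.1% of all genes). Without control replicate 3, 3 were higher and 3 lower. Of those lower, Mcl1 lies on chromosome 3. Klf6 had 119, 148 and 99.3 CPM in control and 236, 193 and 302 CPM in cDKO (log2 change 0.98 ± 0.17, adjusted p = 0.00316, edgeR, SE), and Myc 58.2, 73.3 and 66.2 CPM in control and 121, 127 and 89.8 CPM in cDKO (log2 change 0.75 ± 0.15, adjusted p = 0.0052, highest adjusted p of any alternative 0.118). Cebpd, a transcription factor of myeloid differentiation, had 41.8, 46.7 and 43.7 CPM in control and 20.9, 19.2 and 18.2 CPM in cDKO (log2 change -1.20 ± 0.14, adjusted p = 2.4e-04), and Socs3, which restrains cytokine signalling, 49.99, 57.5 and 45.9 CPM in control and 21.4, 14.2 and 31.1 CPM in cDKO (log2 change -1.22 ± 0.24, adjusted p = 0.00517). In relative conversion 2 of 16 were higher, where 0.696% of all genes were. The first was the AP-1 gene Junb, with rates of 1.03, 1.18 and 1.16% in control and 0.879, 1.01 and 0.846% in cDKO (relative log2 change 0.84 ± 0.21, adjusted p = 0.042, highest adjusted p of any alternative 0.281). The other was the ERK phosphatase Dusp6, with 1.22, 0.931 and 1.05% in control and 1.06, 0.796 and 0.566% in cDKO (relative log2 change 0.70 ± 0.17, adjusted p = 0.0298, highest adjusted p of any alternative 0.322). The median relative log2 change of these 16 was 0.26, against -0.0057 over all genes.

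Interferon response genes had 4 higher and 2 lower of 14 tested (42.9% called against 20.1% of all genes), with a median of -0.0346. Of those higher, Rsad2 passed the read minimum through its cDKO reads alone. Without control replicate 2, 1 was higher and 1 lower. Oas1a, an antiviral RNA sensor, had 14.9, 17.2 and 21.5 CPM in control and 6.76, 1.60 and 2.08 CPM in cDKO (log2 change -2.40 ± 0.45, adjusted p = 0.00433, edgeR, SE), Irf9 31.8, 30.8 and 29.5 CPM in control and 20.7, 21.0 and 20.9 CPM in cDKO (log2 change -0.58 ± 0.14, adjusted p = 0.0174, highest adjusted p of any alternative 0.0625), and the antiviral enzyme Rsad2 0, 0.724 and 0.820 CPM in control and 3.93, 3.20 and 7.77 CPM in cDKO (log2 change 3.21 ± 0.74, adjusted p = 0.0125). Of 9 chemokines and receptors tested, 3 fell and 0 rose (33.3% lower against 10.2% of all genes). With any one library left out 2 to 4 fell, and 1 rose without control replicate 2 or cDKO replicate 2. Ccl9, a chemokine of myeloid cells, had 325, 308 and 282 CPM in control and 63.7, 90.7 and 25.4 CPM in cDKO (log2 change -2.37 ± 0.32, adjusted p = 6.7e-04). Ccr2 had 963, 1071 and 907 CPM in control and 309.7, 163 and 645 CPM in cDKO (log2 change -1.41 ± 0.37, adjusted p = 0.0217, highest adjusted p of any alternative 0.0898), and Cxcr4 had 132, 158 and 152 CPM in control and 105, 116 and 98.8 CPM in cDKO (log2 change -0.48 ± 0.10, adjusted p = 0.00729). Cxcr4 and Ccr2 thus fell in reads, while one was higher and the other lower in relative conversion.

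Of the 51 genes higher in relative conversion, 4 were higher in abundance, 15 lower and 32 not called, and of the 13 lower, 3 were lower in abundance and 10 not called. Over 7325 genes tested in both, Pearson's r between the log2 changes was -0.0308 and Spearman's rho -0.0188, across genes that are not independent and share the same libraries. The median relative log2 change was -0.0221 in the 682 genes higher in abundance and -0.0052 in the 770 lower.

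Whether the genotype difference in abundance at 60 min differed from that at the other chase times was tested in all 24 libraries. Conversion was compared with 0 min only, in the libraries at 0 and 60 min. For abundance, 0 of 10909 genes were called (0%), with 539 at an unadjusted p under 0.05 in edgeR, and DESeq2 called 1. For the change in conversion over the first hour, 0 of 7088 genes were called (0%) by edgeR, with 96 at an unadjusted p under 0.05, and DESeq2 also called 0. The median difference over the first hour was 0.0445 on the log2 scale, and -0.0444 without cDKO replicate 1, -0.068 without cDKO replicate 2 and 0.214 without cDKO replicate 3. These fits leave replicate numbers out. With a block for the numbers of each genotype, 3 genes were called in abundance, among them C2cd4a (-1.94, adjusted p = 0.00499) and Cdkn1a (-0.53, adjusted p = 0.00499), and 1 in the first-hour change, Cxcr4 (0.75 ± 0.14, adjusted p = 0.0112). At an unadjusted p under 0.05 in edgeR, the fits with the block had 886 genes in abundance and 416 in the first-hour change. A p that misses the threshold does not show that the times are alike. Chase time is also the batch in the labels, so the first-hour change is within genotype a difference between batches as well.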

How the data were processed

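The members and gene lists were chosen with earlier results of these data known. Per the methods, the authors made QuantSeq FWD 3′-end libraries, sequenced them as single reads, and ran SlamDunk (0.4.3 per the submitters' processing notes) on mouse GRCm38 (mm10). Mapping and variant masking settings are not given in the sources used here. For each 3′UTR interval the deposited counts hold reads, converted reads, T-to-C conversions and covered T positions as whole numbers. A conversion rate, deposited as a fraction, and deposited CPM values over filtered reads accompany them. Both were used to check sums and recover filtered reads.

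Intervals were named by RefSeq accession (39096 of 39419 lines), the longest of overlapping intervals of a gene was kept, and counts were summed per gene (20867 genes). edgeR (4.0.16, quasi-likelihood, TMM, prior count 0.125, R 4.3.3) was fitted to the 6 libraries at 60 min, without a block, in genes with at least 10 reads in 3 libraries. For conversions the offset was the log of covered T positions (at least 1000 in each library), plus the log library-wide rate for relative conversion. P-values were Benjamini-Hochberg adjusted over all genes tested, with a threshold of 0.05. SE was the log2 change over the root of the F statistic. Fold bounds used 3 reads over the group, and ratios on 1 to 3 reads have exact 95% binomial intervals. Library values were compared by exact permutation.

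Named genes were the 8 largest and 8 smallest log2 changes among called genes with at least 10 reads in each library and groups apart, the 4 most extreme each way with fewer reads and at least 20 CPM in the higher group, the 8 largest and 8 smallest relative conversion changes, and in each list the 4 smallest abundance and 2 smallest relative conversion p-values, plus Bcl2, Tut4, Tut7, Fdft1, Fdps, Ldha, Cyp51 and Hmgcs1. Bad, Bbc3, Bcl2l1, Eif2s3y, Gdf15, Kit, Ms4a2, Pdgfrb, Ptprc, Sars, Zmat3 and the marker genes without reads fall outside this rule. They are named to complete a count or a marker check, chosen after their values were seen. Some genes that the rule or a count would name are not reported here. The fits were also run on simulated counts with the same dispersion in every gene and both groups. That setting leaves out the larger spread between the cDKO libraries, so it does not check the calls made here. Alternatives were RLE scaling, DESeq2 (1.42.0), other minimums, all lines summed, all 24 libraries, a replicate block, no chromosome 3, background subtraction, reads with a conversion, and each library left out. Replicate pairs at 60 min differed by more than sampling noise (chi-square over its degrees of freedom, 3.41 to 4.20 in control and 6.42 to 17.1 in cDKO). No library was therefore treated as a copy of another. This check cannot tell separate cultures from separate libraries of the same culture, so the independence of the replicates rests on the methods.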

Additional observations from a re-analysis of the deposited data

How the results depend on the processing

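The library-wide log2 ratio at 60 min kept its direction and moved by less than the spread between cDKO libraries under each alternative run, from -1.21 to -0.93. Of 99 named genes called in abundance, 76 were called in the same direction under every alternative that tested them, and of 24 called in relative conversion, 7 were. One direction turned: B2m in relative conversion was 0.57 with reads with a conversion over reads. The cause was not tested.

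In abundance, with one library left out, 1301 to 2282 genes were called, and the other alternatives gave 1705 to 2251. In conversion rate, a coverage minimum of 5000 left 3653 genes to test and 3628 called. In relative conversion, summing all lines gave 17 called (the cause was not tested), and leaving out one library gave 29 to 78. For the genotype difference at 60 min against the other times, DESeq2 called 1 gene.

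Replicate numbers did not pair control with cDKO libraries at 60 min, with correlations of deviations of 0.0189, -0.0295 and 0.00139. With the replicate number as a block, 1779 genes were called in abundance, 6528 in conversion rate and 21 in relative conversion, and the mean log2 ratio of library-wide rates within numbers was -1.13. Across chase times, same-numbered cDKO libraries correlated at 0.276 to 0.682 and control libraries at -0.0125 to 0.0416. The control numbers thus did not mark cultures that could be told apart across times. Whether the control libraries came from the same culture or pool was not tested, and the p-values count them as 3 replicates. With a block for the numbers of each genotype, 3 genes were called for 60 min against the other times (C2cd4a, Cdkn1a and Zfp703) and 1 for the first-hour change (Cxcr4, 0.75, adjusted p = 0.0112).

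Depth limits low genes: 10157 of 20867 genes passed the read minimum and 7325 the coverage minimum, and with 3 against 3 libraries no exact permutation test reaches the threshold.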
